A study of Homo sapiens with 4 samples.

Results

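CD33 and related Siglecs are 10 genes (CD33, CD22, MAG and SIGLEC5 to SIGLEC11), and they were taken as every probe that is not a control and whose gene name in the array files is one of these 10. They are 10 of the 31033 gene names on the array and have 16 of its 50238 probes. The family was selected on the fall of CD33 in the PKP3 knockdown clone on these same arrays, so the values of its members in this comparison are given as a description, without a test. The cells were stable clones of HCT116, an established colorectal carcinoma line, grown in Iscove's modified medium with, as the labels give it, 5 μg/ml of puromycin. The clone shpkp3-2 carried a plasmid coding for an shRNA against plakophilin3 (PKP3), a protein of the desmosome, and vec was the vector control. RNA of each clone was collected on separate occasions, 1 vec and 1 shpkp3-2 sample at a time, and hybridized to 4 single color arrays in all, 2 for each clone. Both shpkp3-2 arrays came from 1 knockdown clone and both vec arrays from 1 control clone, and on the single slide the shpkp3-2 arrays lay next to each other with the vec arrays after them, so that the shRNA, the clone and the slide position cannot be told apart.

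Siglecs are lectins of the immunoglobulin superfamily that sit in the cell membrane and bind sialic acid at the ends of sugar chains on the same or on other cells. Most of them, CD33 included, carry in their cytoplasmic tail a tyrosine motif called the ITIM, which recruits the phosphatases SHP-1 and SHP-2 once Src family kinases have phosphorylated it and which dampens signals from activating receptors. They are known mainly from cells of the blood: CD33 is a classical marker of myeloid cells and of acute myeloid leukemia, CD22 a regulator of the B cell receptor, and MAG, which is found outside the blood, a protein of the myelin sheath. Colon epithelium is known more as a carrier of sialic acid ligands than of the receptors.

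The probes are single strands of DNA of 60 bases, and those whose letters code for an ITIM show what the array measured for this family. The sequences below are printed as the files give them, in the sense direction, with capitals marking the 18 bases that code for the motif. The CD33 probe and its counterpart in SIGLEC5 are shown because they cover the same part of the tail, and the CD22 probe because its bases run from a motif to the stop codon, after which 14 bases are not printed.

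CD33: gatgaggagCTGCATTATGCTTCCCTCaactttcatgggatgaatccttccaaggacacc

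SIGLEC5: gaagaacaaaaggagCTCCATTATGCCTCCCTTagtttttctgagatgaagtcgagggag

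CD22: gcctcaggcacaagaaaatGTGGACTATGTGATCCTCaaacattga

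Codons that spell an ITIM were searched in every reading frame. They were found in the printed direction in 5.51% of the 50238 probes of the array and in the opposite direction in 4.90%, and in 3 and 2 of the 16 member probes, so a match alone describes letters and nothing more. Within the capitals, SIGLEC5 had the same base as CD33 at 15 of 18 positions and CD22 at 11 of 18. Over the whole probes, the best alignment without gaps of SIGLEC5 to CD33 matched 36 of 54 bases (66.7%), and the longest identical stretch was 8 bases. No other probe of the array shared a stretch of 15 bases with this CD33 probe or with the second, brighter one. Both CD33 probes are assigned by the files to the transcripts NM_001772 and NM_001082618, so these isoforms are not told apart.

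Values are processed signal intensities, which the scanner software gives in its own units after background subtraction. For comparison between arrays the intensity was put on a log2 scale relative to the 75th percentile of its array, and a value on this scale is called a normalized log2 value. A probe was called detected on an array where the software flagged it as well above background, and the lowest intensity so flagged was 8.41 to 9.74 per array. Across the arrays 60.5% to 63.5% of spots that are not controls were detected, the summed intensity was 115635392 to 130032824, and 0 spots were saturated. The number of arrays, 2 per clone, limits the precision. The shRNA target itself was lower in the knockdown clone. PKP3 had intensities of 20850 and 22840 in vec and of 3414 and 3078 in shpkp3-2, a log2 difference of -2.54 with a standard error of 0.23 (limma, adjusted p = 0.0188; 1.26e-07 to 0.145 over 12 alternative settings, 10 of them under the threshold of 0.05).

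CD33, the myeloid receptor, was detected on every array and was far lower in the knockdown clone than in vec. The brighter of its 2 probes had intensities of 1987 and 1537 in the vec arrays and of 159.1 and 156.1 in the shpkp3-2 arrays. The probe that codes for the ITIM had intensities of 937.2 and 713.7 in vec and of 70.7 and 76.5 in shpkp3-2. Both probes were detected on all 4 arrays, and every vec value lay far above every shpkp3-2 value, so the clones did not overlap. On the normalized log2 scale vec was at 2.00 ± 0.01 (SD, n = 2) by the brighter probe while shpkp3-2 was at -1.26 ± 0.01 (SD, n = 2), a difference of -3.26. By the ITIM probe vec was at 0.91 ± 0.00371 (SD, n = 2) while shpkp3-2 was at -2.36 ± 0.09 (SD, n = 2), again a difference of -3.26. The level in shpkp3-2 was thus 10.4% of that in vec by either probe, a 9.58-fold and a 9.61-fold difference. With normexp background correction, another way to treat the background, the differences were 7.51-fold by the brighter probe and 6.05-fold by the ITIM probe. The median SD of all probes tested was 0.20 for vec and 0.12 for shpkp3-2, and both CD33 probes lay below it in either clone.

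The difference was alike in both RNA collections. In the first collection the brighter CD33 probe differed by -3.25 and the ITIM probe by -3.33 on the log2 scale, and in the second by -3.27 and -3.20. As RNA of whole cultures was measured, fewer cells with CD33 and less CD33 RNA in each cell cannot be told apart.

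For scale, limma called 75 of 30512 probes higher (0.246%) and 44 lower (0.144%) in shpkp3-2 at an adjusted p under 0.05. The probes tested were those detected on both vec arrays, both shpkp3-2 arrays or all of them. These counts depended strongly on the processing, from 1 to 503 higher and from 1 to 338 lower over the alternative settings. Of the 16 member probes, 3 passed that filter. As the fall of CD33 chose the family, no call is given for its members and nothing is read from the rank that follows. Ordered by log2 difference, the CD33 probes were the 10th and 11th lowest of the 30512.

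**Figure D1:**
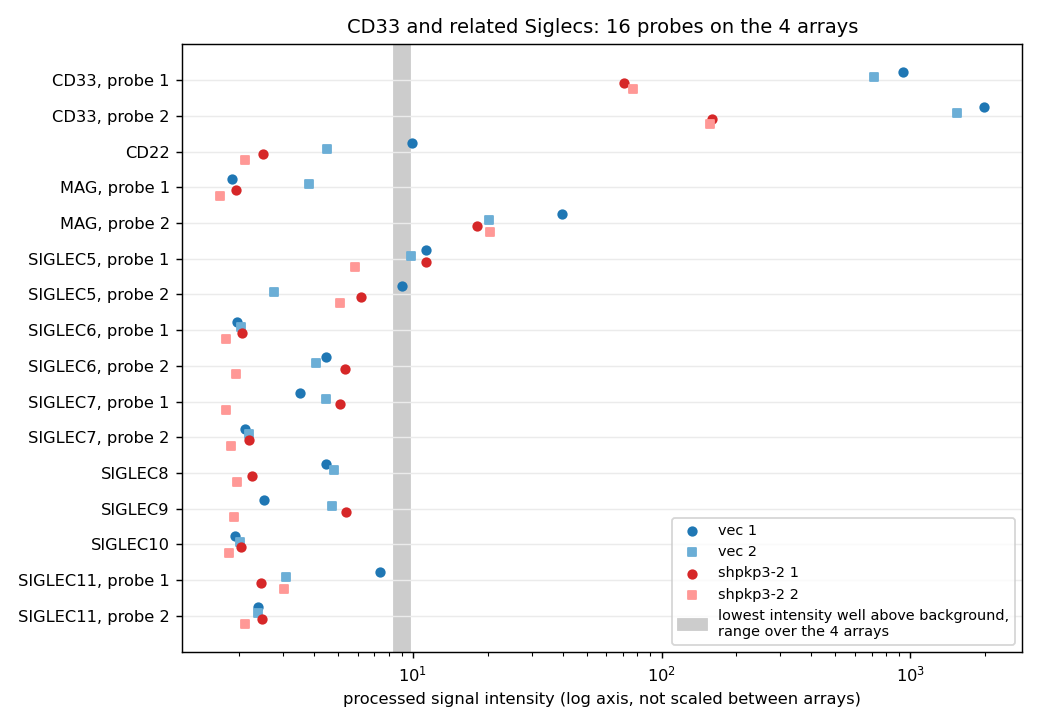
Processed signal intensity (log axis) of the 16 member probes, with 1 point for each of the 4 arrays, circles for the first and squares for the second RNA collection, blue for vec and red for shpkp3-2. The gray band spans the lowest intensities that were well above background, 8.41 to 9.74: both CD33 probes lie far to its right with the vec points apart from the shpkp3-2 points, MAG probe 2 lies just right of it, and most other points lie to its left.

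MAG, the myelin associated glycoprotein, was the other member detected on all 4 arrays, at a low signal. Its probe had intensities of 39.8 and 20.3 in vec and of 18.1 and 20.3 in shpkp3-2. The first vec array was high and the other 3 were alike, so the clones overlapped. For vec the normalized log2 mean was -3.94 ± 0.41 (SD, n = 2), while for shpkp3-2 it was -4.29 ± 0.13 (SD, n = 2). The difference of -0.35 was smaller than the spread between the vec arrays, and it was 0.04 with another background correction. A second probe of that name is described in the files as a malignancy-associated protein, which is another gene. It entered by its name alone and, with intensities of 1.87 and 3.82 in vec and of 1.94 and 1.68 in shpkp3-2, was on no array well above background.

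SIGLEC5, a receptor of neutrophils and monocytes, was at the limit of detection. Its first probe had intensities of 11.2 and 9.81 in vec and of 11.3 and 5.84 in shpkp3-2, and it was well above background on the first array of each clone but not on the second. The probe that codes for the SIGLEC5 ITIM had intensities of 9.07 and 2.76 in vec and of 6.18 and 5.09 in shpkp3-2 and was on no array well above background. The clones overlapped for both probes.

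CD22, which restrains B cell receptor signals, had intensities of 9.93 and 4.51 in vec and of 2.48 and 2.11 in shpkp3-2. The vec values were the higher ones and did not overlap with the others, but none of the 4 was well above background, so no fold is given. The SIGLEC8 probe, for a receptor of eosinophils and mast cells, had intensities of 4.47 and 4.83 in vec and of 2.26 and 1.97 in shpkp3-2. It had the same order as CD22 and was likewise not well above background on any array. For either probe 2 of the 4 values were surrogates put in by the software for signals at background, and both shpkp3-2 values were about as large as their software error.

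The remaining members had overlapping values and no detected probe. SIGLEC6, known from trophoblast and B cells, had intensities of 1.77 to 5.31 over its 2 probes and 4 arrays. SIGLEC7, a receptor of natural killer cells, ranged from 1.77 to 5.09 over its 2 probes. SIGLEC9, found on neutrophils and monocytes, was at 2.51 and 4.72 in vec and at 5.37 and 1.91 in shpkp3-2.

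SIGLEC10, known from B cells and other leukocytes, was at 1.92 and 2.02 in vec and at 2.03 and 1.82 in shpkp3-2. SIGLEC11, known from macrophages and microglia, ranged from 2.11 to 7.36 over its 2 probes, with the highest value on the first vec array. Counted together, 3 member probes were detected on all 4 arrays, 1 on some and 12 on none, and 8 of the 10 genes had no probe that passed the filter. The 12 probes detected on no array had intensities from 1.68 to 9.93, and 26 of their 48 values were surrogates that the software puts in place of signals at background. For these members the arrays give an upper bound and no difference. With a weaker flag, positive and significant, 6 of the 16 probes were detected on all 4 arrays and 4 on none.

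Siglecs outside the 10 names were low as well. SIGLEC1, the macrophage receptor sialoadhesin, had no detected probe, and SIGLEC12 had 1 detected value, 23.9 on the second vec array. SIGLEC15, known from osteoclasts, had a probe detected on all arrays, with intensities of 32.3 and 25.1 in vec and of 28.1 and 28.7 in shpkp3-2, and a log2 difference of 0.21 with a standard error of 0.17 (limma, adjusted p = 0.647). Its 2 further probes were on no array well above background.

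SIGLEC14, an activating relative of SIGLEC5, had a probe with intensities of 6.75 and 8.54 in vec, not well above background, and of 11.7 and 12.5 in shpkp3-2, where both were. As it entered the fit through shpkp3-2 alone, its limma p (adjusted p = 0.305) rests on vec values at background, and no fold is given. Its second probe, from 2.85 to 5.21, was on no array well above background. There both vec intensities lay above both shpkp3-2 intensities, the opposite order to the first probe. SIGLEC16, another activating Siglec, had intensities of 36.2 and 31.9 in vec and of 40.6 and 48.8 in shpkp3-2, a log2 difference of 0.60 with a standard error of 0.20 (limma, adjusted p = 0.326). Its second probe was on no array well above background. SIGLEC14 and SIGLEC16 have close copies in SIGLEC5 and SIGLEC11, so signal at these probes may be shared.

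CD33 was then set beside its neighbours in the genome. All 10 members lie on chromosome 19 in the RefSeq annotation of GRCh38.p14. MAG and CD22 are next to each other, SIGLEC11 stands alone, and SIGLEC9, SIGLEC7 and CD33 follow each other in the cluster that also holds SIGLEC10, SIGLEC8, SIGLEC6 and SIGLEC5. Positions are not given, as the array was designed on an older build. A list of 28 neighbours from KLK5 to FPR3 that are not members was examined, of which 24 had a probe and 15 passed the filter.

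Among these 15 neighbours, 12 were higher and 3 lower in shpkp3-2, with a median log2 difference of 0.18, beside a median of 0.05 and 57.4% higher over the 14571 genes tested. Of all these genes, with the brightest probe standing for each, 0.275% were called higher and 0.178% lower, and 1018 (6.99%) were higher and 658 (4.52%) lower at an unadjusted p under 0.05. Of the neighbours 0 were called in either direction by limma, while 5 were higher and 0 lower at an unadjusted p under 0.05, and the smallest adjusted p was 0.163. Without SIGLEC14, which was not detected in vec, 11 of 14 were higher with a median of 0.13, and 4 were higher and 0 lower at an unadjusted p under 0.05. The median of the 15 also moved with the processing, to 0.0884 with quantile normalization, 0.287 without vec 1 and 0.119 without shpkp3-2 1. The tested genes nearest to CD33 were CTU1, a tRNA thiolation enzyme, on one side with a log2 difference of 0.27, and ETFB, a mitochondrial electron carrier, and CLDND2 on the other with 0.08 and 0.18. None of them showed a difference of the size of that of CD33, and none passed the test (adjusted p = 0.582, 0.888 and 0.739).

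Among the neighbours detected on all arrays, the largest differences were in a formyl peptide receptor and in kallikreins, secreted serine proteases. FPR1, the receptor by which phagocytes sense bacterial peptides, had intensities of 32.4 and 22.2 in vec and of 43.2 and 41.4 in shpkp3-2, a log2 difference of 0.87 (SE 0.18; limma, adjusted p = 0.163). Its 2 other probes gave 0.92 and 0.94. KLK11, KLK6 and KLK8 differed by 0.75, 0.67 and 0.61 (limma, adjusted p = 0.223, 0.279 and 0.271), with shpkp3-2 higher on both arrays in each case.

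**Figure D2:**
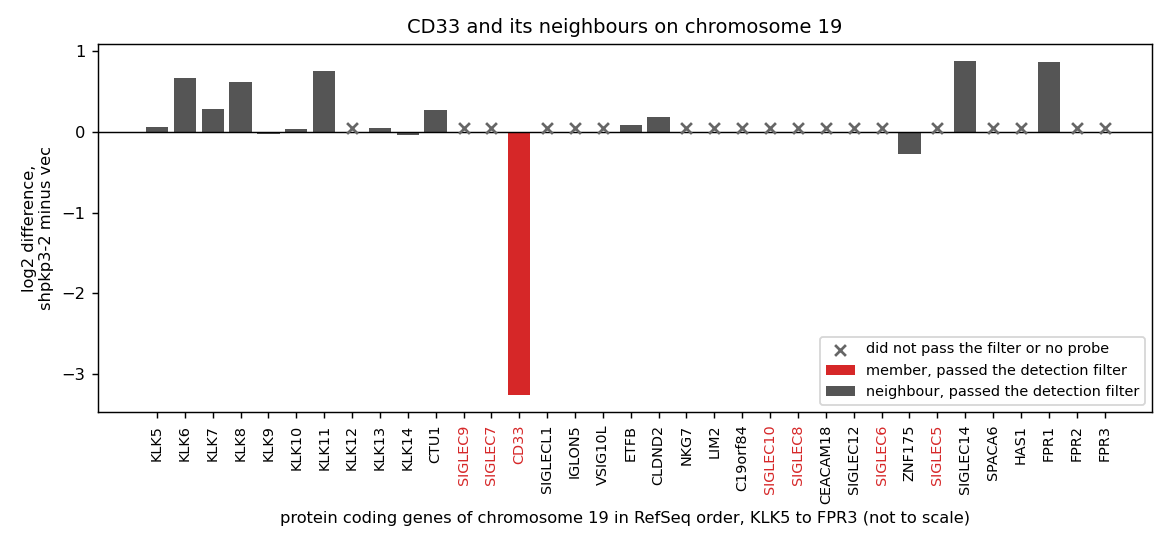
Log2 difference (shpkp3-2 minus vec) of genes on chromosome 19 in their RefSeq order from KLK5 to FPR3, evenly spaced, with members in red, neighbours in gray, and a cross that carries no value where no probe passed the filter or the gene has none. CD33 stands at -3.26 between genes whose bars lie between -0.27 and 0.88; the SIGLEC14 bar rests on vec values not well above background.

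The genes that make, attach and remove the sialic acid that Siglecs bind were taken as a list of 31, all with a probe, of which 23 passed the filter. Of these, 13 were higher and 10 lower in shpkp3-2, with a median log2 difference of 0.03 whose sign turned with the scaling and with the array left out, and 0 were called in either direction. At an unadjusted p under 0.05, 2 were higher and 3 lower, beside 11.5% of all genes tested in either direction. GNE, the enzyme that opens sialic acid synthesis, had intensities of 1546 and 1013 in vec and of 571.0 and 614.8 in shpkp3-2. Both vec values were above both shpkp3-2 values, and the log2 difference was -0.87 with a standard error of 0.19 (limma, adjusted p = 0.180). NANS, the synthase that follows in the pathway, was at 2601 and 2714 in vec and at 3354 and 3487 in shpkp3-2, a log2 difference of 0.58 (SE 0.22; adjusted p = 0.375).

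Of the sialyltransferases, ST3GAL3 and ST3GAL6 place sialic acid on galactose. ST3GAL3 had a log2 difference of -0.65 and ST3GAL6 one of -0.59 (limma, adjusted p = 0.268 and 0.286). The second ST3GAL3 probe gave -0.05. ST6GAL1, which makes the linkage that CD22 prefers, had intensities of 1414 and 666.6 in vec and of 617.5 and 566.8 in shpkp3-2, so that 1 vec array stood far above the other 3 (log2 difference -0.50, SE 0.27, adjusted p = 0.510). NEU1, the lysosomal sialidase, had a log2 difference of 0.70 (SE 0.20; adjusted p = 0.271), with intensities of 2151 and 1329 in vec and of 2266 and 2470 in shpkp3-2. CMAS, which activates sialic acid, and SLC35A1, which carries it into the Golgi, had log2 differences of 0.14 and 0.21 (adjusted p = 0.790 and 0.654).

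Downstream of the receptors, a list of 18 phosphatases, kinases, adaptors and ligand carriers was examined, of which 17 passed the filter. Of these, 9 were higher and 8 lower in shpkp3-2, with a median log2 difference of 0.03 whose sign turned likewise, and 0 were called in either direction. At an unadjusted p under 0.05, 1 was higher and 4 lower, beside the same 11.5% of all genes. PTPN6 and PTPN11, which code for SHP-1 and SHP-2, had log2 differences of 0.03 and 0.15 with standard errors of 0.18 and 0.21. The other PTPN11 probes gave -0.19 to 0.13. The kinases SYK and LYN had 0.13 and 0.17, and INPP5D, a lipid phosphatase recruited to such tails, had 0.26. Adjusted p for these 5 genes was 0.616 or more.

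SRC, a kinase able to phosphorylate the motif, showed the largest difference of the list. Its intensities were 516.7 and 356.4 in vec and 221.8 and 180.2 in shpkp3-2, without overlap, and the log2 difference was -0.89 with a standard error of 0.19 (limma, adjusted p = 0.183). SOCS3, which is known to bind the phosphorylated tail of CD33, had a log2 difference of -0.59 by its brighter probe and of 0.53 by the other, so the probes disagreed in direction. Of the glycoproteins that carry ligands, MUC1 differed by -0.75 and PODXL by -0.58, and CD44, a receptor for hyaluronan, by 0.69 (adjusted p = 0.334, 0.311 and 0.232). CD24, a ligand of SIGLEC10, differed by -0.42 (adjusted p = 0.447).

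**Figure D3:**
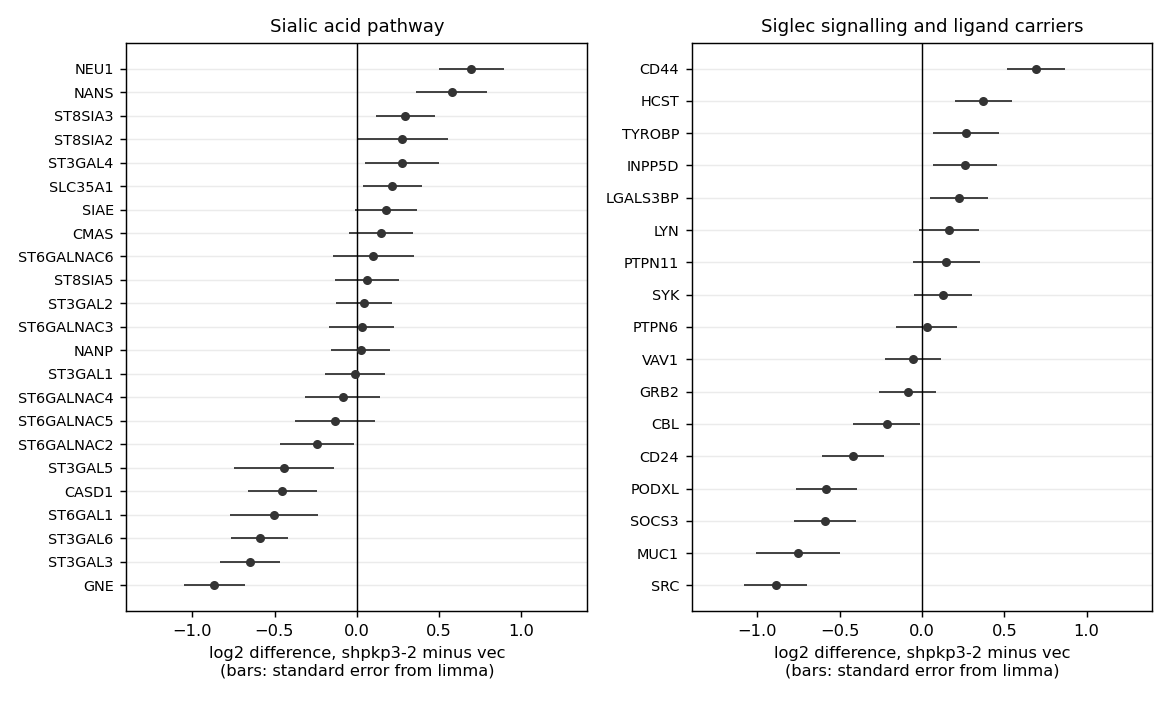
Log2 difference (shpkp3-2 minus vec) with its standard error from limma for the 23 sialic acid pathway genes (left) and the 17 signalling and ligand carrier genes (right) that passed the filter, ordered by value. Points lie on both sides of 0, from -0.87 to 0.70 on the left and from -0.89 to 0.69 on the right, and none passed an adjusted p of 0.05.

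The label of the cells and the possible presence of cells that normally carry these receptors were examined through marker genes. Of 8 epithelial markers, 6 (EPCAM, KRT8, KRT18, KRT20, CDH1 and CDX2) were detected on all arrays, while CEACAM5 was detected on none. Of 11 leukocyte and myeloid markers, 5 (CD14, CD68, CSF1R, ITGAM and ITGAX) were detected on all arrays, ITGAX by its brighter probe alone. PTPRC, SPI1, LYZ, CD163 and ELANE were detected on none. PTPRC, the common leukocyte antigen, had intensities of 1.92 to 3.75 over its 2 probes, and SPI1, the regulator of myeloid identity, of 2.00 to 3.30.

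The summed intensity of these 11 markers was 451.1 and 305.7 on the vec arrays, against 611.6 and 741.2 on those of shpkp3-2, which was the opposite order to that of CD33. CSF1R and CD68 were the brightest of these markers, at 117.0 to 313.0 and at 108.6 to 296.4. The 5 genes that passed the filter had a median log2 difference of 0.97. CSF1R and ITGAX differed by 0.97 and 1.12, but CD14 and ITGAM by 0.22 and -0.03. CD68, a lysosomal protein of macrophages and other cells, was the single marker of these 5 called by limma, with a log2 difference of 1.43 (adjusted p = 0.0459). Of all genes tested, 0.275% were called higher. Of the B cell markers reported here, CD79A, CD79B and, by its brighter probe alone, PAX5 were detected on all arrays and MS4A1 on none. Their sum, 722.1 and 934.9 for vec against 559.0 and 592.5 for shpkp3-2, had the same order as CD33. CD79A made up most of that sum (log2 difference -0.32), while CD79B and PAX5 had differences of 0.12 and 0.09. The 4 markers of natural killer cells were detected on no array, with sums of 17.7 and 14.4 for vec against 11.5 and 9.74 for shpkp3-2. Of the myelin markers reported here MBP was detected on all arrays by its brightest probe. Its other probes, at 1.69 to 3.23, and those of MOG and MOBP were detected on none. PRG2 was the one eosinophil and mast cell marker, of 3 with a probe, detected on all arrays, and the sums of that list overlapped, as did those of the myelin markers. CGB5 and GCM1 of 4 trophoblast markers were detected on all arrays, and the sum of the list, 454.4 and 564.9 for vec against 376.0 and 383.9 for shpkp3-2, also had the order of CD33. It was carried by 1 CGB5 probe (log2 difference -0.23), while the other CGB5 probe gave 0.02 and the 2 GCM1 probes 0.17 and 0.29. None of these B cell and trophoblast probes passed the test (limma, adjusted p of 0.567 or more). These sums were not scaled between arrays. The part of other cells in the CD33 signal was not tested.

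The genes whose 4 values were most like those of CD33 were sought among the 28883 probes detected on all arrays. Probes without a RefSeq symbol were left out. Each probe was centred on its own mean, and likeness was measured as the root mean square difference to the brighter CD33 probe over the 4 arrays. The second CD33 probe lay at 0.05. The nearest other genes were STXBP6, which binds syntaxins, at 0.11, TM9SF3, a membrane protein, at 0.12, DNAH2, a dynein heavy chain of cilia, at 0.16, UTS2B, a peptide hormone, at 0.18, and BDNF, a neurotrophin, at 0.36. Their log2 differences were -3.35, -3.19, -3.58, -3.13 and -2.92. For STXBP6, TM9SF3 and BDNF another probe was detected and gave -3.05, -2.84 and -2.04. With 4 arrays of 2 clones, likeness to CD33 is little more than a difference of the same size, and it is given as a description.

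**Figure D4:**
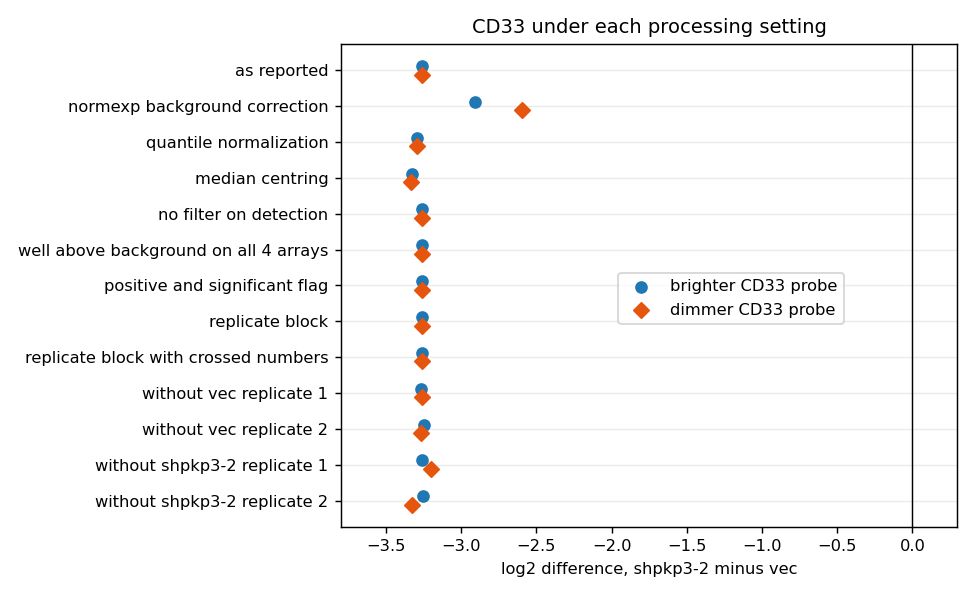
Log2 difference (shpkp3-2 minus vec) of the brighter (blue circles) and dimmer (orange diamonds) CD33 probe under each processing setting, 1 row per setting. All points lie between -3.33 and -2.60, well below 0, and those with normexp background correction are nearest to it.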

How the data were processed

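Cy3 labeled RNA of HCT116 clones was measured on 4 arrays. The authors deposited the Agilent Feature Extraction output of each array, whose processed signal is a linear intensity after background subtraction and detrending, with no scaling between arrays. The submitters' notes name version 9.1 and the file headers a later one, and the probe names are of a custom design, not of the catalogue array in the methods. The labels name puromycin and the methods blasticidin for these clones. The deposited mean and background intensities served an alternative, and the deposited 0 or 1 flags, which are another kind of value, gave detection.

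Spots with the outlier flag (26 to 39 per array) were left out and spots of a probe averaged, giving 50117 probes with values, of which 30512 were tested with limma 3.58.1 (R 4.3.3; lmFit, eBayes, Benjamini-Hochberg over all probes). Probes were matched to RefSeq symbols by accession (28595), symbol (2998) or older symbol (1176), and 17469 had no match. Probes without a match counted as probes only and were left out of the gene counts, the lists, the markers and the search for genes like CD33. The brightest probe stands for a gene. Python 3.11.15 with pandas 2.3.3, numpy 2.4.6 and matplotlib 3.10.9 did the rest, and the fit was tested on simulated data.

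Named were all members, other Siglecs, PKP3, every called gene and the 5 largest differences of each list, and the 5 genes nearest to CD33. CTU1, ETFB, CLDND2, ST6GAL1, CMAS, SLC35A1, PTPN6, PTPN11, SYK, LYN, INPP5D, CD24 and the markers with values were chosen after values were seen. Members and lists were chosen with earlier results of these data known. The design text pairs arrays of 1 RNA collection. Deviations of same-numbered arrays correlated at -0.199. Nothing says whether cultures were separate beyond the labels' biological replicates, so p-values measure the spread between these samples. Alternatives were normexp (offset 50), quantile normalization, median centring, 3 other filters, a replicate block, each array left out, and the mean of a gene's probes. Of the B cell and myelin marker lists, 1 gene each is not reported here.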

Additional observations from a re-analysis of the deposited data

How the results depend on the processing

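The brighter CD33 probe had a log2 difference of -2.91 with normexp background correction, -3.30 with quantile normalization and -3.33 with median centring, beside -3.26, and -3.27 to -3.25 when each array was left out in turn, and the ITIM probe -2.60 with normexp. The MAG difference turned to 0.0437 with normexp and ranged from -0.65 to -0.06 when arrays were left out. PKP3 stayed at -2.54 but missed the threshold with no filter on detection (adjusted p = 0.135) and with the weaker flag (adjusted p = 0.145), and ranged from -2.80 to -2.28 with arrays left out. Called probes over the whole array, 75 higher and 44 lower, became 10 and 8 with no filter, 25 and 21 with detection on all 4 arrays, and 1 and 1 with the weaker flag. Quantile normalization gave 42 higher. With the replicate block, that is the paired fit, 503 were higher and 338 lower, and no list gene was called. Crossing the pairs gave 64 and 40. Leaving out arrays gave 79 to 400 higher and 54 to 202 lower, with 181 and 76 without vec 1, 400 and 202 without vec 2, and 70 lower without shpkp3-2 2. Without vec 2, SIGLEC14 passed the threshold (adjusted p = 0.0450), so the neighbours called higher ranged from 0 to 1, but its vec signal was not well above background and it was tested only through shpkp3-2. In the other limma fits 0 genes of the 3 lists were called. The list medians moved more. That of the neighbours, 0.18, was 0.0884 with quantile normalization, 0.113 with median centring, 0.136 with no filter, 0.134 with detection on all 4 arrays, 0.103 with the weaker flag and 0.119 to 0.287 with arrays left out. That of the sialic acid pathway, 0.03, was -0.0394 with median centring, 0.00601 with the weaker flag, and -0.0489 without vec 1 to 0.0489 without vec 2. That of the signalling list, 0.03, was -0.0215 with normexp, -0.0429 with median centring, 0.0768 with no filter and with the weaker flag, and -0.0559 without shpkp3-2 2 to 0.109 without vec 2. The cause of these moves was not tested, save that a wider filter tests more probes. A clone left with 1 array is assumed to vary like the other. Signal over background limits 8 of the 10 genes to a bound.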
